A study of Mus musculus with 6 samples.

Results

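The 9 genes described here are interferon-stimulated genes: the transcription factor genes Irf7 and Irf9, the ubiquitin-like modifier gene Isg15, the IFIT genes Ifit1, Ifit2 and Ifit3, the oligoadenylate synthetase-like gene Oasl2, the GTPase gene Mx1 and the tetherin gene Bst2. They were taken by symbol from the 23420 rows of the gene count table, and all 9 were found and passed the filter on low counts. The RNA was ribosome-bound RNA from cerebellar Purkinje neurons of C57BL/6 mice at 4 weeks of age, purified by BacTRAP, a method that captures tagged ribosomes with antibodies and recovers the RNA on them. The 3 cKO libraries came from mice with the Pcp2-BacTRAP transgene, Pcp2-Cre, and 1 floxed and 1 null Rbm17 allele. The 3 control libraries came from mice with the same Pcp2-BacTRAP transgene, 1 floxed and 1 wild-type Rbm17 allele, and no Cre. Both the tag and Cre depend on the promoter of Pcp2, a Purkinje cell gene. Cre and the null allele, which does not depend on Cre, are present only in cKO mice, so a difference below is one between the whole genotypes. Each library is 1 cerebellum.

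Type I interferons bind the receptor IFNAR, whose kinases JAK1 and TYK2 start a signal to the nucleus. There the complex ISGF3, which contains IRF9, binds the interferon-stimulated response element in front of target genes. In the brain such genes are low at rest, and neurons, astrocytes and microglia can all switch them on after viral infection or when sensors detect nucleic acid in the cytosol.

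Each library held between 140110897 and 160571518 gene counts, and no pair of libraries in a group agreed within sampling noise. Rbm17, the targeted gene, had 25.75, 25.55 and 26.25 CPM (gene counts scaled to a common library size) in the cKO libraries, against 41.15, 42.48 and 41.31 CPM in the control libraries. The junction that skips Rbm17 exon 4 had 137, 106 and 136 reads in cKO and 3, 1 and 1 in control. Purkinje markers were abundant: 10 of them summed to between 18160 and 21200 CPM in cKO and between 30600 and 40800 CPM in control. Of the 10, 7 fell (edgeR quasi-likelihood test, adjusted p under 0.05), against 3.85% of all genes tested. Granule cell markers were abundant too, at 3428 to 5664 CPM in cKO and 4052 to 5689 CPM in control for a list of 10, so the pull-down also held RNA of other cells. In such a mixture, fewer cells of a type and less RNA per cell cannot be told apart.

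Of the 9 genes, 4 rose in cKO: Irf9, Ifit2, Oasl2 and Mx1 (edgeR quasi-likelihood test, Benjamini-Hochberg adjusted p under 0.05 over all 16067 genes tested). None of the 9 fell. Among all genes tested, 4.03% rose by the same rule. Mx1, at 0 in control, passed the filter on low counts only through the cKO libraries, and its call held with no filter (adjusted p = 0.0065); of the other 8 genes, 3 were called. All 9 log2 fold changes were positive, with a median of 1.17, against a median of 0.01 over all genes tested. In 5 of the 9, Irf9, Ifit2, Oasl2, Mx1 and Bst2, every cKO library lay above every control library, as in 15.0% of all genes tested. At an unadjusted p under 0.05, 7 of the 9 were higher in cKO, against 11.5% of all genes. DESeq2 called 6 of the 9 upward, adding Ifit1 and Ifit3, against 5.65% of the 18972 genes it tested.

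The count called depended on single libraries. Leaving out cKO replicate 1, cKO replicate 3, control replicate 1 or control replicate 2 left 1 gene called, while 3 were called without cKO replicate 2 (Irf9, Mx1 and, newly, Ifit3) and 3 without control replicate 3 (Oasl2, Mx1 and, newly, Ifit1). Mx1 was called in each of these 6 fits. Irf9 was called only without cKO replicate 2, and Oasl2 only without control replicate 3. The call of Ifit2 was lost in all 6, with adjusted p between 0.052 and 0.156.

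**Figure D1:**
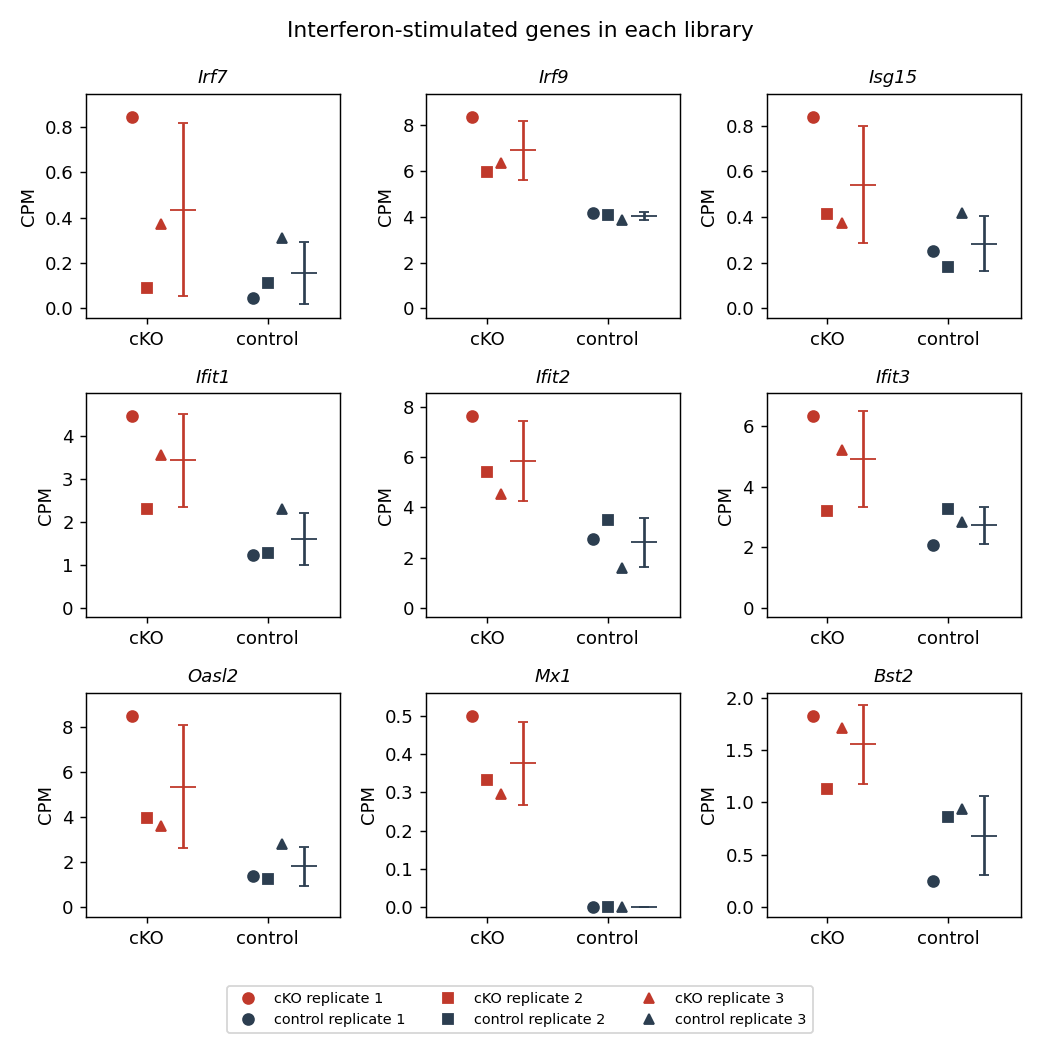
Level of each of the 9 genes in CPM on a linear axis, with 1 point per library (cKO left, control right) and the mean ± SD of 3 libraries beside the points. cKO replicate 1 is the highest cKO library in all 9 panels, and Mx1 is at 0 in the 3 control libraries.

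The members' promoters were searched for the core of the interferon-stimulated response element, GAAA, a gap of 2 bases of any kind and GAAA again, or TTTC and TTTC with the same gap for a copy on the other strand, in windows from 250 bases before to 50 bases after each annotated start (RefSeq, GRCm38.p6, the same build as mm10). The table held windows for 8 of the 9 genes, and those of Bst2, Ifit1, Ifit3 and Isg15 held the letters, as did 3.99% of the 27025 genes in the table. The stretches below, written 5′ to 3′ on the strand of the gene, show where these copies lie, with the matching letters in capitals.
Isg15 (chr4:156200855-156200916, minus strand): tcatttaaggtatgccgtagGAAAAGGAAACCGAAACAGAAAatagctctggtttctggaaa
Ifit1 (chr19:34640765-34640833, plus strand): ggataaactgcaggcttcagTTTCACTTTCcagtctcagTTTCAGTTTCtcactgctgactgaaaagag
Ifit3 (chr19:34583353-34583436, plus strand): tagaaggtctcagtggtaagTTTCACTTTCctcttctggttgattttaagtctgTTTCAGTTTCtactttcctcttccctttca
Bst2 (chr8:71537567-71537622, minus strand): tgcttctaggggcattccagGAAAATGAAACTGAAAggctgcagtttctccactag
In Isg15 the 3 matches overlap and begin 78, 72 and 66 bases before the start. In Bst2 a pair of overlapping matches begins 130 and 124 bases before it. Ifit1 and Ifit3 each hold a separate pair, beginning 104 and 85 bases before the start in Ifit1, and 156 and 122 bases before it in Ifit3. The windows of Irf7, Irf9, Ifit2 and Oasl2 did not hold these letters. Of the genes with the letters in their window, edgeR called none by gene counts, against 4.03% of all genes called upward. DESeq2 called Ifit1 and Ifit3 (adjusted p = 0.0195 and 0.0366), against 5.65% of the genes it tested. With so few genes, these calls are not read as a result about the letters.

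Irf9, which encodes the DNA-binding subunit of ISGF3 (mm10 chromosome 14, 55603571 to 55610030, plus strand), rose in cKO. Its level was 8.34, 5.97 and 6.36 CPM in the cKO libraries, against 4.18, 4.08 and 3.86 CPM in the control libraries. The groups did not overlap, and the controls lay close together. The log2 fold change was 0.77 (SE 0.19; edgeR quasi-likelihood test, adjusted p = 0.032). Leaving out single libraries other than cKO replicate 2 gave adjusted p between 0.058 and 0.114. Irf9 shares exonic bases with its neighbour Rnf31 on the same strand, so the origin of reads there is uncertain.

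Irf7, the factor that amplifies type I interferon production (chromosome 7, 141262706 to 141266481, minus strand), was low and varied by library. It had 137, 13 and 61 counts in cKO, or 0.845, 0.0882 and 0.374 CPM, against 6, 16 and 43 counts in control, or 0.0458, 0.111 and 0.310 CPM. One cKO library, replicate 2, lay below control replicates 2 and 3. Irf7 shares exonic bases with Phrf1 on the opposite strand, and whether the counting used strand is not stated. Its log2 fold change of 1.48 (SE 0.97; edgeR adjusted p = 0.42) did not pass the test, and it was 0.57 without cKO replicate 1 and 2.44 without control replicate 3.

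Isg15 encodes a small ubiquitin-like protein that is attached to other proteins (chromosome 4, 156199424 to 156200818, minus strand). It had 136, 61 and 61 counts in cKO, or 0.839, 0.414 and 0.374 CPM, against 33, 26 and 58 counts in control, or 0.252, 0.181 and 0.418 CPM. Control replicate 3 lay above 2 of the 3 cKO libraries. The log2 fold change was 0.93 (SE 0.64; edgeR adjusted p = 0.45).

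The IFIT proteins bind viral RNA, and IFIT1 recognises caps that lack 2′-O methylation. Their 3 genes lie in a cluster on chromosome 19, Ifit2 at 34550694 to 34576419, Ifit3 at 34583531 to 34588731 and Ifit1 at 34640871 to 34650009, all on the plus strand. Ifit2 had 7.61, 5.40 and 4.52 CPM in cKO, against 2.72, 3.51 and 1.59 CPM in control. The groups did not overlap, and the log2 fold change was 1.17 (SE 0.31; edgeR adjusted p = 0.046). Ifit1 had 4.46, 2.29 and 3.55 CPM in cKO, against 1.24, 1.28 and 2.29 CPM in control. Its lowest cKO library stood level with its highest control library, and the log2 fold change of 1.10 (SE 0.35) had an edgeR adjusted p of 0.086. Ifit3 had 6.33, 3.21 and 5.22 CPM in cKO, against 2.08, 3.26 and 2.84 CPM in control. Here cKO replicate 2 lay just under control replicate 2, and the log2 fold change was 0.85 (SE 0.29; edgeR adjusted p = 0.11). The longest Ifit3 transcript shares 97.8% of 1700 aligned bases with that of its neighbour Ifit3b, so reads of these genes may be split or dropped by the counting, which is not described in the sources used here. Ifit3b, listed under an older name, averaged 2.88 ± 0.67 CPM in cKO and 2.42 ± 0.18 CPM in control (SD, n = 3 each; log2 fold change 0.25, SE 0.26, edgeR adjusted p = 0.63).

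Oasl2 belongs to the oligoadenylate synthetase family, whose classical members make the messenger that activates the nuclease RNase L (chromosome 5, 114896936 to 114912234, plus strand). It had 8.48, 3.95 and 3.58 CPM in cKO, against 1.39, 1.24 and 2.81 CPM in control. All cKO libraries lay above all control libraries, and cKO replicate 1 stood apart from the other 2. The log2 fold change was 1.56 (SE 0.41; edgeR adjusted p = 0.044). Without cKO replicate 1 it was 1.06 (adjusted p = 0.16), without control replicate 3 it was 2.00 (adjusted p = 0.020), and the other 4 fits that left out a library gave adjusted p between 0.0597 and 0.146. By limma-voom the adjusted p was 0.064.

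Mx1 encodes a dynamin-like GTPase that blocks influenza virus in mice with an intact gene, whereas C57BL/6 mice carry a deletion in it (chromosome 16, 97447035 to 97462907, minus strand). It had 81, 49 and 48 counts in cKO, or 0.499, 0.332 and 0.295 CPM, and 0 counts in each control library. The mean in cKO, 0.375 ± 0.11 CPM (SD, n = 3), was at least 51.7-fold higher than control, taking 3 counts in the 3 control libraries together as the floor (edgeR quasi-likelihood test, adjusted p = 0.0074). The floor allows counting error only, since reads amplified from a small amount of RNA are not independent molecules. With Mx1 set at this bound, 5.69 on the log2 scale, the median log2 fold change of the 9 genes was still 1.17. Part of its transcript is close to that of Mx2 (94.8% identity over 920 bases), and Mx2 had 1.55, 1.88 and 0.387 CPM in cKO and 0.0993, 0.410 and 0.231 CPM in control, with 1 cKO library below 1 control library (edgeR adjusted p = 0.074).

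Bst2 encodes tetherin, which holds budding virus particles at the cell surface (chromosome 8, 71534255 to 71537456, minus strand). It had 1.83, 1.13 and 1.71 CPM in cKO, against 0.252, 0.862 and 0.937 CPM in control. The groups did not overlap, but control replicate 1 was far below the other controls. The log2 fold change of 1.18 (SE 0.51) had an edgeR adjusted p of 0.21, and it was 0.78 without control replicate 1.

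Levels between genes were compared as CPM per kilobase of annotated exon (GENCODE vM21). This length joins the exons of all annotated transcripts. For Irf7 it is 3776 bases, the whole span of the locus. For Oasl2 it is 6374 bases, against 3123 in its longest coding transcript. The order and the gaps below may depend on this choice, and other lengths were not tried. Ifit3 was the highest of the 9 in both groups, at 2.82 ± 0.91 in cKO and 1.56 ± 0.34 in control (SD, n = 3 each). In cKO it was followed by Bst2, Ifit2, Ifit1, Irf9, Oasl2 and Isg15, from 1.72 down to 0.717. The mean ± SD range of each of these overlapped that of the next among them. Irf7 and Mx1 followed at 0.115 and 0.0992. In control, Bst2, Irf9, Ifit2, Ifit1, Isg15 and Oasl2 ran from 0.757 to 0.284, again with overlapping ranges from each to the next. Irf7 at 0.0412 and Mx1 at 0 lay below them. Ranges did not overlap between Isg15 and Irf7 in cKO. In control they did not overlap between Ifit3 and Bst2, Oasl2 and Irf7, or Irf7 and Mx1.

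Spliced reads, those that cross an annotated intron, gave a second readout from the same 6 libraries. They were summed over the introns of a gene, so a read that crosses several introns counts at each. For Bst2 the sums thus exceeded the gene counts, which were 296, 166 and 278 in cKO and 33, 124 and 130 in control. By edgeR, none of the 7 genes that passed the filter was called, against 2.87% of 14714 genes called upward, while Oasl2, Bst2 and Irf9 were higher in cKO at an unadjusted p under 0.05, against 9.73% of genes. In 4 of the 9, Ifit3, Oasl2, Mx1 and Bst2, every cKO library lay above every control library, against 13.1% of genes. Oasl2 had 289, 146 and 140 spliced reads in cKO and 25, 38 and 75 in control (log2 fold change 1.88, SE 0.52, edgeR adjusted p = 0.068; 0.046 without control replicate 3). Bst2 had 360, 226 and 380 in cKO and 52, 146 and 150 in control (log2 fold change 1.30, SE 0.40, edgeR adjusted p = 0.10). These log2 fold changes are close to those from gene counts. Irf9 had 654, 348 and 629 spliced reads in cKO and 339, 320 and 215 in control, so that cKO replicate 2 stood level with the controls (log2 fold change 0.71, SE 0.28, edgeR adjusted p = 0.19).

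The spliced reads were few for the remaining genes. Mx1 had 33, 3 and 4 in cKO and 0 in every control library, and it did not pass the filter. Isg15 had 14, 7 and 7 in cKO and 3, 3 and 15 in control, and it was filtered out too. Ifit1 had 24, 4 and 13 in cKO and 4, 26 and 1 in control, a log2 fold change of 0.24 (SE 1.14), against 1.10 from gene counts. Leaving out cKO replicate 1, control replicate 1 or control replicate 3 turned it to -0.43, -0.13 and -0.29. Ifit2 had 14, 20 and 40 in cKO and 19, 21 and 3 in control (log2 fold change 0.59, SE 0.88). For Ifit1 and Ifit2 the spliced reads thus did not separate the groups. Ifit3 had 21, 22 and 41 in cKO and 14, 13 and 5 in control (log2 fold change 1.19, SE 0.78).

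**Figure D2:**
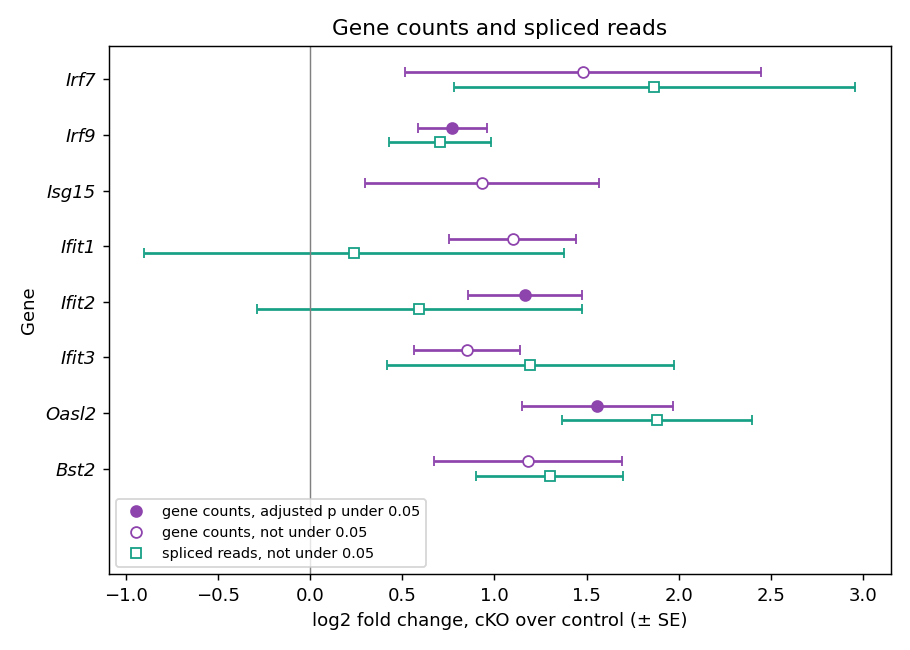
Log2 fold change of cKO over control with its SE, from gene counts (circles) and from spliced reads (squares), for the 8 genes with control counts. Filled symbols passed the test: Irf9, Ifit2 and Oasl2 by gene counts. Isg15 has no square, because its spliced reads did not pass the filter.

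The position of the spliced reads along the genes differed between members. Bst2 had reads on 4 annotated introns, with 174 to 276 reads each in cKO and 62 to 109 in control, and the 2 introns nearest the 3′ end held 55.0%, 53.1% and 56.3% of them in the cKO libraries and 67.3%, 52.7% and 58.0% in control. In Oasl2 the summed reads were likewise higher in cKO on all 5 introns with reads, but the last 2 held 51.6%, 52.1% and 48.6% of them in the cKO libraries and 28.0%, 26.3% and 40.0% in control, without overlap. In Irf7 those 2 introns held 85 of 96 reads in cKO replicate 1, 2 of 3 in replicate 2 and 18 of 44 in replicate 3, against 3 of 34 over the control libraries. Likewise 24 of the 33 Mx1 reads of cKO replicate 1 lay on the last 2 introns. The spliced reads of Irf7 and Mx1 in that library thus lay mostly near the 3′ end of the gene.

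The share of unannotated junctions differed between the loci. Over all 9, they held 39 of 3621 junction reads in cKO (1.08%) and 32 of 1553 in control (2.06%), over 8 junctions in all. Of all junction reads in a library, 97.87% to 97.97% lay on annotated introns in cKO and 98.02% to 98.48% in control. Oasl2 had 7 such reads in cKO and 0 in control, while Bst2 had 0 in cKO and 7 in control, all in replicate 2. Mx1 had 5, all in cKO replicate 3, or 11.1% of its junction reads in cKO. It had no junction reads of any kind in control, so no share can be given there. In Ifit3 such junctions held 20 of 104 reads in cKO (19.2%) and 20 of 52 in control (38.5%).

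**Figure D3:**
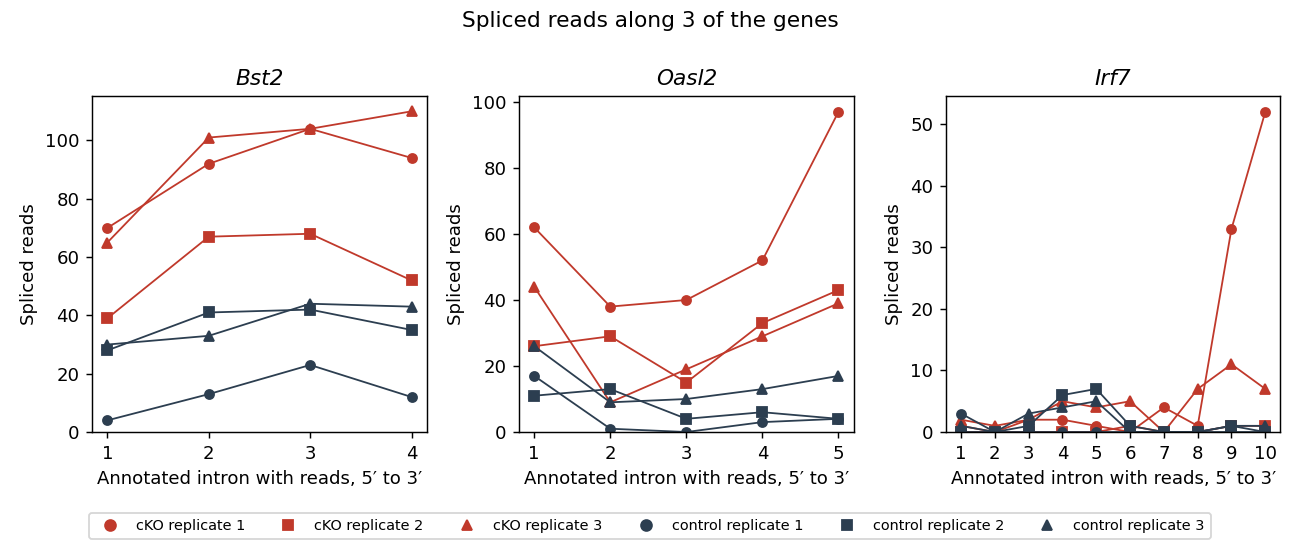
Spliced reads (counts, linear axis) on each annotated intron with reads, ordered 5′ to 3′, for Bst2, Oasl2 and Irf7, with 1 line per library (cKO red, control dark). In Bst2 the cKO libraries keep similar profiles along the gene, whereas in Irf7 the reads of cKO replicate 1 lie mainly on the last 2 introns.

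The cKO libraries differed from each other, and by gene counts only the place of replicate 1 was the same for every member. cKO replicate 1 was the highest cKO library in 9 of 9 genes, against 36.8% of all genes tested. Its level over the mean of the other 2 cKO libraries was 1.29-fold in Bst2, 1.35-fold in Irf9, 2.13-fold in Isg15, 2.25-fold in Oasl2 and 3.65-fold in Irf7, with a median of 1.53-fold, whereas the median over all genes tested was 0.99-fold. Of all genes tested, 8.35% reached that median of 1.53. The order of the other 2 varied: replicate 3 was above replicate 2 in Irf7, Irf9, Ifit1, Ifit3 and Bst2 and below it in Isg15, Ifit2, Oasl2 and Mx1. Each library is 1 animal, so this difference has no replicate. Among the controls, replicate 3 was the highest in Irf7, Isg15, Ifit1, Oasl2 and Bst2 and the lowest in Irf9 and Ifit2. In Bst2 the counting intervals of cKO replicates 1 and 3 overlapped, at 1.623 to 2.045 and 1.511 to 1.919 CPM (95% exact Poisson). By spliced reads, cKO replicate 1 was the lowest cKO library for Ifit2 (14, against 20 and 40) and Ifit3 (21, against 22 and 41). It lay below cKO replicate 3 for Bst2 (360 and 380) and was the highest cKO library for the other genes.

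Markers of microglia, taken as a sum, moved with the 9 genes. Summed over the 9, the level was 39.2, 22.8 and 26.0 CPM in cKO and 12.2, 14.5 and 15.1 CPM in control. A list of 14 microglial markers summed to 166.4, 105.1 and 130.3 CPM in cKO and 55.5, 72.1 and 79.3 CPM in control, so the 6 libraries had the same order in both sums. Of these 14 markers 8 rose, against 4.03% of all genes, and 12 were highest in cKO replicate 1 among the cKO libraries, against 36.8% of all genes. The log2 fold change was positive in 12 of the 14. P2ry12 and Tmem119 did not rise, at -0.02 and -0.10 (edgeR adjusted p = 0.97 and 0.89). Monocyte and blood macrophage markers, 9 in the list, summed to 31.57, 17.88 and 24.96 CPM in cKO and 9.28, 15.3 and 16.1 CPM in control, again in the same order of libraries and without overlap. Lyz2, a lysozyme gene that microglia can also express, was the highest of the list in every library. Of the 7 tested, 0 were called by edgeR, against 4.03% of all genes upward, and 0 by DESeq2, against 5.65%. At an unadjusted p under 0.05, 2 were higher, against 11.5%. The part of microglial or monocyte RNA in the interferon-stimulated genes was not tested.

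Summed markers of the other cell types did not follow that order. Purkinje markers summed to 18160, 20070 and 21200 CPM in cKO and to 40800, 33130 and 30600 CPM in control, and cKO replicate 1 was the lowest of the cKO libraries. Lymphocyte and plasmacytoid dendritic cell markers ranged from 2.69 to 4.15 CPM in cKO and from 2.14 to 3.35 CPM in control, with Ms4a1 and Ncr1 at 0 in every library. Their sum was highest in cKO replicate 1. Siglech was the highest of this list in every library, at 3.55, 1.96 and 1.52 CPM in cKO and 1.725, 2.11 and 2.21 CPM in control. Endothelial markers ranged from 18.7 to 32.1 CPM in cKO and from 18.9 to 34.8 CPM in control, with none highest in cKO replicate 1. For astrocytes and Bergmann glia 10 markers ranged from 3733 to 4311 CPM in cKO and from 4753 to 5540 CPM in control, while Gfap alone of them rose, to 171.2, 91.1 and 104.1 CPM in cKO, against 39.3, 46.7 and 47.1 CPM in control. Gfap thus was also highest in cKO replicate 1, and the 6 libraries had the same order for Gfap as for the sum of the 9 genes.

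**Figure D4:**
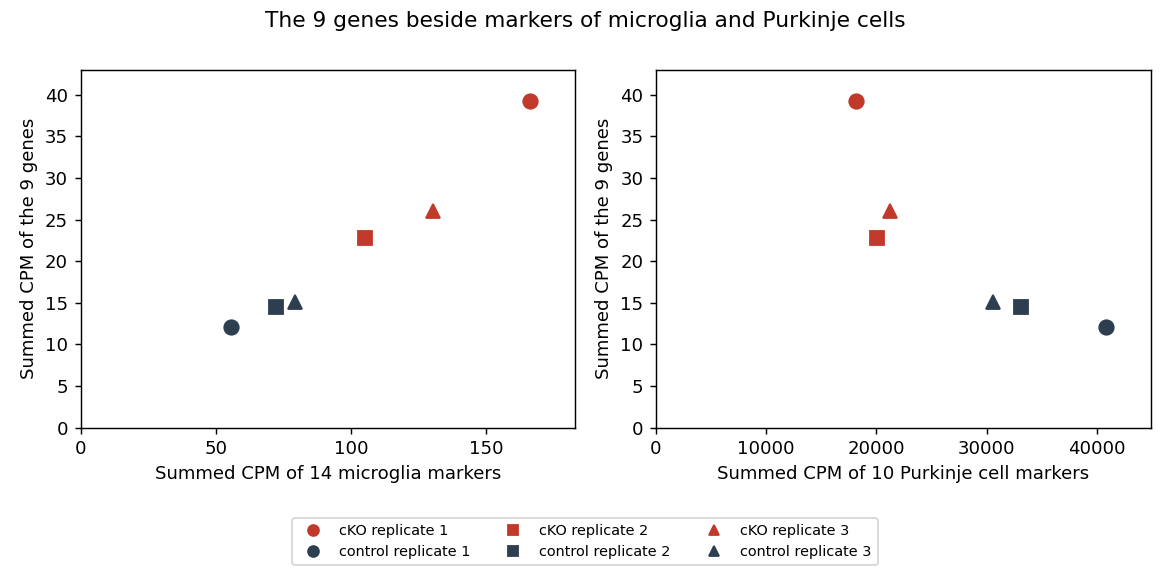
Summed CPM of the 9 genes (vertical) against the summed CPM of 14 microglial markers (left) and of 10 Purkinje cell markers (right), 1 point per library. The libraries have the same order in both sums on the left, from control replicate 1 at 12.2 to cKO replicate 1 at 39.2 CPM on the vertical axis.

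Upstream of these genes, interferon ligand genes had almost no counts. Of 14 interferon ligand genes, among them Ifnb1, Ifng and several Ifna genes, 13 had 0 counts in all 6 libraries, and Ifnl2 had 1 count in cKO replicate 3. A count of 0 allows up to 0.0203 CPM in a cKO library and up to 0.0229 CPM in a control library. These bounds allow counting error only. How reads that map to several genes were counted is not stated, so reads of similar ligand genes may have been dropped. Of 16 receptor and signalling genes, 0 were called by edgeR, against 4.03% of all genes called upward. At an unadjusted p under 0.05, 2 were higher, Irf8 and Irf1, against 11.5% of all genes. DESeq2 called the same number upward, against 5.65% of the genes it tested. The median log2 fold change of the 16 was 0.07. The kinase gene Jak1 averaged 132.6 ± 17 CPM in cKO and 134.5 ± 27 CPM in control, and the interferon-gamma receptor gene Ifngr2 averaged 57.4 ± 3.6 CPM in cKO and 62.4 ± 1.0 CPM in control (SD, n = 3 each).

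The enzymes that attach or remove ISG15 gave 0 calls of 5 by edgeR (0 at an unadjusted p under 0.05, 0 by DESeq2). Over all genes the upward shares were 4.03%, 11.5% and 5.65%, so 0 of 5 is not read as a lack of response. The median log2 fold change of the 5 was 0.75. The ubiquitin ligase gene Trim25 averaged 3.97 ± 0.79 CPM in cKO and 3.57 ± 0.42 CPM in control, and Ube2l6, the gene of the ISG15-conjugating enzyme, 2.101 ± 0.85 CPM in cKO and 1.25 ± 0.49 CPM in control (SD, n = 3 each). Of 8 genes that restrain interferon signalling, 1 rose, against 4.03% of all genes: the phosphatase gene Ptpn6, with 2.23, 1.41 and 1.06 CPM in cKO against 0.237, 0.431 and 0.454 CPM in control (log2 fold change 2.06, SE 0.47, edgeR adjusted p = 0.027). That call of Ptpn6 was lost without cKO replicate 1 or 2 or control replicate 1 or 2, with adjusted p between 0.0589 and 0.118.

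Other interferon-stimulated genes were higher in part. Of 45 tested, 6 rose and 0 fell, against 4.03% and 3.85% of all genes, and 40 had a positive log2 fold change, with a median of 0.79. In 32 of the 45, cKO replicate 1 was the highest cKO library, against 36.8% of all genes. Isg20, an exonuclease gene, had 2.79, 2.37 and 2.01 CPM in cKO and 0.344, 0.202 and 0.260 CPM in control (log2 fold change 3.15, SE 0.39, edgeR adjusted p = 0.0013), and its call held in each fit that left out 1 library. Cxcl10, which encodes a chemokine for T cells, had 3.06, 2.68 and 1.07 CPM in cKO and 0.0764, 0.0209 and 0.324 CPM in control (edgeR adjusted p = 0.016; 0.058 without cKO replicate 1). Ifi204, a gene of the PYHIN family of DNA-binding proteins, had 1.22, 0.163 and 0.822 CPM in cKO and 0.0153, 0.0139 and 0.0433 CPM in control (edgeR adjusted p = 0.014; between 0.059 and 0.0693 without cKO replicate 1, cKO replicate 3 or control replicate 2, and 0.107 by limma-voom). Oas1b had 52, 42 and 29 counts in cKO and 0, 3 and 1 in control (edgeR adjusted p = 0.029), and its call was lost without any 1 library (adjusted p 0.0686 to 0.103) and with no filter (0.0571). The other called genes were Oasl1, a relative of Oasl2, and Irgm1, an immunity-related GTPase gene (edgeR adjusted p = 0.0356 and 0.0472). The call of Oasl1 was lost without any 1 library (0.077 to 0.149), with no filter (0.0629) and by limma-voom (0.0559). That of Irgm1 was lost without cKO replicate 1 or 3 or control replicate 1 or 2 (0.1 to 0.157) and by limma-voom (0.0621). Ifi204, Oas1b and Oasl1 had under 10 counts in every control library and passed the filter only through the cKO libraries. In this list 1 gene was called when cKO replicate 1 was left out, 2 when control replicate 2 was, and 3 when cKO replicate 3 was.

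Of 12 nucleic acid sensor genes tested, 2 rose and 0 fell by edgeR, against 4.03% and 3.85% of all genes. DESeq2 called 3 upward, against 5.65% of the genes it tested. At an unadjusted p under 0.05 by edgeR, 5 were higher, against 11.5% of all genes. Ddx58, the gene of the viral RNA sensor RIG-I, had 10.1, 8.20 and 7.33 CPM in cKO and 2.79, 1.64 and 2.105 CPM in control, with an edgeR adjusted p of 0.0010. Eif2ak2, which encodes the RNA-activated kinase PKR, had 14.5, 11.5 and 12.6 CPM in cKO and 8.001, 6.18 and 7.32 CPM in control (log2 fold change 0.84, SE 0.16, edgeR adjusted p = 0.0097; 0.052 without control replicate 2). In both genes the groups did not overlap, and the libraries within cKO lay closer together than for Oasl2. Of 9 MHC class I genes 1 fell and 0 rose, against 3.85% and 4.03% of all genes, while 8 had positive log2 fold changes and the list's median was 0.37. The heavy chain gene H2-D1 had 37.8, 33.1 and 33.8 CPM in cKO and 49.7, 52.5 and 54.4 CPM in control (log2 fold change -0.58, SE 0.10, edgeR adjusted p = 0.0054). Summed over the 9 MHC class I genes, the groups overlapped, at 167.3, 152.0 and 157.0 CPM in cKO and 127.9, 156.8 and 176.0 CPM in control, with control replicate 3 the highest library.

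**Figure D5:**
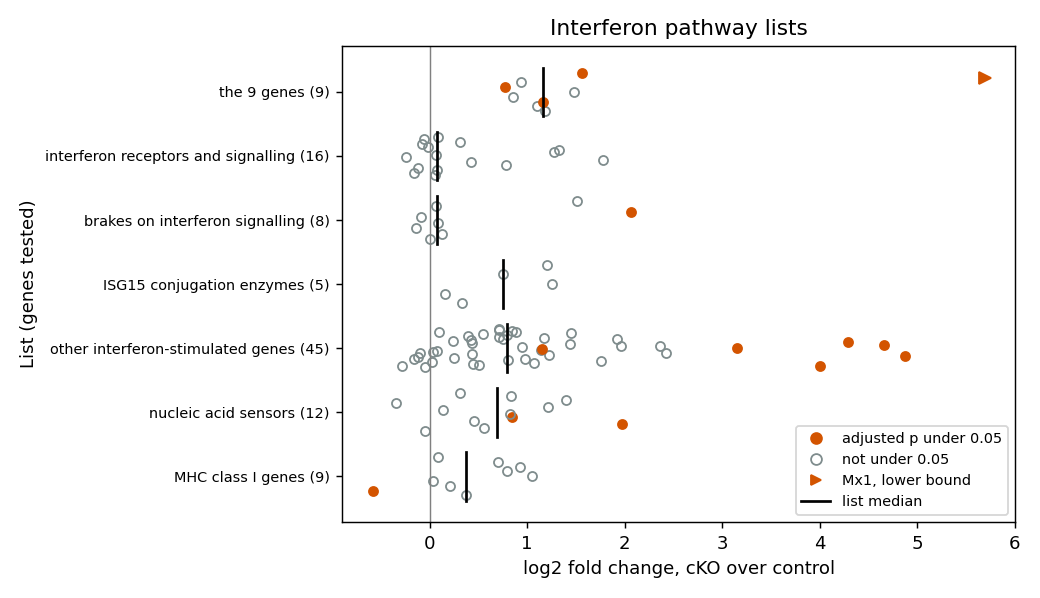
Log2 fold change of cKO over control for every tested gene of the 9 and of 6 pathway lists, with list medians as vertical lines and genes that passed the test filled. Mx1 is drawn at its lower bound of 5.69. The medians run from 1.17 for the 9 genes to 0.07 for receptors and signalling genes.

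By shape over the 6 libraries, the 5 other genes most like the mean profile of the 9 (Pearson r of log2 CPM, mean of at least 50 counts) were Tpd52l1 (r = 0.998), Map4k5 (0.997), Psmb6 (0.996), Dusp16 (0.995) and Oscar (0.994). None is in the interferon lists used here. These values describe 6 libraries that fall into 2 groups. Psmb6, a proteasome subunit gene, had 138.0, 122.4 and 128.2 CPM in cKO and 107.1, 112.2 and 113.9 CPM in control, a far smaller relative difference than in the 9 genes. Oscar, which encodes a receptor of myeloid cells, had 4.69, 2.23 and 2.79 CPM in cKO and 0.733, 1.18 and 1.25 CPM in control (edgeR adjusted p = 0.023; between 0.0554 and 0.0983 without cKO replicate 1 or 3 or control replicate 1 or 2).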

How the data were processed

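Ribosome-bound RNA of 6 cerebella, 3 cKO and 3 control, was amplified as cDNA with the NuGEN Ovation system and sequenced on an Illumina instrument, per the labels' protocols. Per the file headers, the deposited values are unnormalised counts of reads for each gene and, for each library, counts of reads for each TopHat splice junction. TopHat2 2.1.0, HTSeq 0.6.0 and mm10 are named in the submitters' processing notes. Which annotation and strand setting were used, and how multi-mapped reads were counted, is not stated there or in the labels. Rn45s, the ribosomal RNA precursor, held 9.56% to 13.5% of counts.

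Gene counts were tested with edgeR 4.0.16 (R 4.3.3; filterByExpr, TMM, quasi-likelihood test of cKO over control, no covariate; threshold 0.05). Standard errors are the log2 fold change divided by the square root of F. CPM are on TMM-scaled totals of the genes tested. Junction reads on introns of single GENCODE vM21 genes were summed per gene and tested alike. Both steps were tested on simulated data. Alternatives were DESeq2 1.42.0, limma-voom (limma 3.58.1), other scalings and filters, the replicate number as a block, and each library left out. Genes named from the lists are the called ones, up to 4 by smallest p, or else the 2 highest; of 116 pathway symbols, 3 matched through older names and Ifi27 did not match. Members and lists were chosen with earlier results of these data known. Genes outside that rule (Ifit3b, Mx2, Irf1, Irf8, Gfap and the markers) were chosen by role or after their values were seen.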

Additional observations from a re-analysis of the deposited data

How the results depend on the processing

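Over the 7 alternatives of scaling, filter, test and library total, and the replicate block, the 9 genes kept positive log2 fold changes in all 70 values (Irf7 and Mx1 did not pass the stricter filter), and 66 stayed on the same side of the threshold. DESeq2 called 2107 genes in all, 16 in the pathway lists, and Ifit1 and Ifit3 (log2 fold changes 1.09 and 0.85); limma-voom did not call Oasl2 (1.55). The cause was not tested. Each library left out in turn gave 530 to 1037 genes called (1265 with all), 1 to 3 of the 9 (4 with all) and 4 to 9 in the pathway lists (10 with all), with fewer samples in each fit. In these fits the log2 fold change ran from 0.61 to 0.86 for Irf9, 0.87 to 1.43 for Ifit1, 0.89 to 1.42 for Ifit2, 0.63 to 1.08 for Ifit3 and 1.06 to 2.00 for Oasl2. For spliced reads 268 to 598 genes were called (837 with all), 0 to 1 of the 9 genes, with Ifit1 from -0.43 to 2.15 and at -0.13 without control replicate 1 and -0.29 without control replicate 3. Without a filter 1 of the 9, Oasl2, was called by spliced reads (0 with it). The shorter pattern, GAA in place of the first GAAA, was in 1 of the 8 promoter windows (4 for the longer one). It was in 8.68% of all genes, against 3.99% for the longer one. It sets the starts of the 2 parts 1 base closer, so a match to the longer pattern need not hold it.

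The replicate block called 1734 genes and 5 of the 9, adding Ifit1 (log2 fold change 1.10, edgeR adjusted p = 0.047). Deviations from the group mean had r = 0.18, -0.04 and 0.05 over genes between same-numbered libraries. Between libraries of different numbers r ran from -0.21 to 0.19. The labels state no pairing, and so few values cannot exclude one. Irf7, Isg15 and Mx1 have few counts and wide counting intervals (for Irf7 0.0469 to 0.151 CPM in cKO replicate 2, 95% exact Poisson).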

Other observations

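Other genes of the IRF family, chosen after their values were seen, gave these values; Irf8 and Irf1, but not Irf3, were highest in cKO replicate 1 among the cKO libraries. Irf8, a factor of microglia and other myeloid cells, had 686, 244 and 603 counts in cKO and 128, 271 and 131 in control (log2 fold change 1.33, SE 0.41, edgeR adjusted p = 0.082). Irf1 had 389, 79 and 215 counts in cKO and 21, 47 and 104 in control (log2 fold change 1.78, SE 0.68, edgeR adjusted p = 0.15). Irf3, a factor activated by phosphorylation rather than by its level, had 2750, 2013 and 2832 counts in cKO and 2005, 2261 and 2042 in control, with a log2 fold change of 0.07 (SE 0.13).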
